A study of Mus musculus with 9 samples.

Results

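The 8 genes described here belong to the NF-kB system, namely the subunit genes Nfkb2 and Relb, the inhibitor genes Nfkbia and Nfkbie, the atypical inhibitor family gene Bcl3, the feedback gene Tnfaip3, and the signalling genes Birc3 and Traf1. They were taken by gene symbol from the deposited table, which lists 1710 genes, and all 8 were found in it and passed the filter on low counts. Bcl3 and Traf1 passed that filter only through their HighDose libraries. The RNA came from WT mouse tissue labelled "brain ctx", cut from the centre of the infected area 10 days after a stereotaxic viral injection. There were 3 groups of 3 libraries each, labelled PBS (a buffered salt solution), LowDose and HighDose. AAV in the title of the series stands for adeno-associated virus, a DNA virus that serves as a gene delivery vector. All 9 libraries share the WT genotype, the tissue, the injection and the harvest time, and the injection is labelled as viral for PBS too. How much was injected at either dose was not used here, and the sources used here state neither age nor sex. Nothing in the labels says whether libraries of a group came from separate mice, so p-values measure the spread between libraries, which may be technical.

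NF-kB is a family of dimeric transcription factors that inhibitor proteins (the IkB proteins) hold in the cytoplasm of resting cells. Signals from Toll-like, cytokine and cytosolic nucleic acid receptors lead to phosphorylation and loss of the inhibitor, so that the dimer enters the nucleus and binds kappaB sites. Several NF-kB target genes encode inhibitors of the pathway itself and so close a feedback loop. In the brain the system is known for driving cytokine and chemokine genes in microglia and astrocytes.

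Promoter sequences are shown because NF-kB acts through letters in the DNA near the start sites of its targets. RefSeq promoter windows (GRCm38.p6, from 250 bases before to 50 bases after a start site) were found for 7 of the 8 genes, in 10 windows. Capitals mark matches, on either strand, to the kappaB consensus or to GGANTTTCC, a variant of it that can overlap the same letters. Positions are counted from 1 at the 5′ end of each window.
Nfkbia, chr12:55492598-55492897, minus strand: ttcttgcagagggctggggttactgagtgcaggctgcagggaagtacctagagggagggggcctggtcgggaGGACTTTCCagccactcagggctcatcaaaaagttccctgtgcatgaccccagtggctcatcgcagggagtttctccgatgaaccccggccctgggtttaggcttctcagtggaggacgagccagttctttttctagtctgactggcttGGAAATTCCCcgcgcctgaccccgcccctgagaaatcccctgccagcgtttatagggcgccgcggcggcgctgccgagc
Nfkb2, chr19:46304487-46304786, plus strand: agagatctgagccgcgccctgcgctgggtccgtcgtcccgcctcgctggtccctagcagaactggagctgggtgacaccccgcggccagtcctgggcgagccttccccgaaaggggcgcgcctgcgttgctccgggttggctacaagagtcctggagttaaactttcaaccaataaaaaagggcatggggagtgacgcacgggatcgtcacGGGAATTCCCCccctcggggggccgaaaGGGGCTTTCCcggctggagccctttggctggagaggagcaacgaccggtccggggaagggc
Nfkbie, chr17:45555450-45555749, plus strand: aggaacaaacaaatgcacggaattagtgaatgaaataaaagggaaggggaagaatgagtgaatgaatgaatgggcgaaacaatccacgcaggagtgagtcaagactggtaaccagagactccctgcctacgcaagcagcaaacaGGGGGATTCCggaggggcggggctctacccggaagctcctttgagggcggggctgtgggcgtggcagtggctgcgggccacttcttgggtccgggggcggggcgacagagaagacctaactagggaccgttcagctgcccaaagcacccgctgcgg
Tnfaip3, chr10:19015361-19015660, minus strand: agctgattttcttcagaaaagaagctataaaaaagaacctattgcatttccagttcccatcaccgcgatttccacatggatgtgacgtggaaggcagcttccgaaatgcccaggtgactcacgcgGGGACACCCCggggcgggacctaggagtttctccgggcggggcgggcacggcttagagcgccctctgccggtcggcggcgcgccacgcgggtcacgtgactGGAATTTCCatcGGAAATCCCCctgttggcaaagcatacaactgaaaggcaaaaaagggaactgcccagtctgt
Bcl3, chr7:19822706-19823005, minus strand: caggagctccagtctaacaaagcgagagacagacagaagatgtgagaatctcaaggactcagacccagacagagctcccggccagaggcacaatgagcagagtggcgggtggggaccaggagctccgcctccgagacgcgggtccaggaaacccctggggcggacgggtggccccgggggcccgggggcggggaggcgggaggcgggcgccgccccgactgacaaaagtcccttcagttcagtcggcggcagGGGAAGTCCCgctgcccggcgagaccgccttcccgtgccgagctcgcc
Traf1, chr2:34961723-34962022, minus strand: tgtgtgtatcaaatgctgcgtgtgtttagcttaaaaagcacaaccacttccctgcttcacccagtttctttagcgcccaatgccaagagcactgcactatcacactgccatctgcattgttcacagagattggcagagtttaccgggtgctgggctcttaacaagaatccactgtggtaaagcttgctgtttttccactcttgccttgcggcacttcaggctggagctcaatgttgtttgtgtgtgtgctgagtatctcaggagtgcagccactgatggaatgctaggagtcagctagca

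The kappaB consensus was matched in 5 of the 7 genes with a window, namely Nfkb2, Nfkbia, Nfkbie, Tnfaip3 and Bcl3, against 9.55% of all 27025 genes with a window. In Nfkbia the match GGAAATTCCC starts at base 222 and its GGANTTTCC match shares the same letters, while a separate GGACTTTCC lies at base 73. The first Nfkb2 window holds GGGAATTCCC at base 212, a second match on the other strand shifted by 1 base, and GGGGCTTTCC at base 240. GGANTTTCC was found in 3 of the 7 genes (Nfkb2, in another of its windows, Nfkbia and Tnfaip3), against 1.45% of all genes. The core of the interferon-stimulated response element, a pair of GAAA blocks set 2 free bases apart, was matched in 0 of the 7, against 3.99% of all genes. The Traf1 window is shown because it holds none of the 3 motifs, as was the case for the window of Birc3. A match is a description of letters and not of binding, and no match says only that these letters are not in the window.

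Estimated counts were deposited for each gene and library and are given as CPM, the count divided by the library total in M. FPKM, also deposited, divides further by transcript length and is the scale on which levels of different genes are compared. Library totals, recovered from counts, FPKM and transcript lengths, were 18.3 to 23.7 M per library, and a floor of 3 counts corresponded to 0.126 to 0.164 CPM. Each of the 1710 listed genes differed at least 2-fold between some pair of group mean FPKM values, so all 8 genes were bound to differ in some comparison. The listed genes made up 1.57% ± 0.0377 of the total in PBS, 1.36% ± 0.0206 in LowDose and 5.05% ± 1.08 in HighDose libraries (SD, n = 3 each). Changes on the scale of library totals are therefore read against the median of the 1583 tested genes, which was 1.90 (log2) in HighDose and −0.03 in LowDose, each against PBS, and 1.88 in HighDose against LowDose. Scalings that hold the listed genes level moved the first of these medians to 0.19 with TMM, to 0.22 with DESeq2 size factors and to 0.22 with the sum of listed counts. Log2 changes are given ± SE with adjusted p-values from edgeR's quasi-likelihood test with Benjamini-Hochberg adjustment over all tested genes.

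All 8 genes were higher in HighDose than in PBS libraries at library totals, with every HighDose library above every PBS library. The 3 other scalings hold the listed genes level by construction. The share of those genes in the total was 1.57% in PBS and 5.05% in HighDose libraries. Under these scalings 5 of the 8 were higher, 2 (Nfkbia and Tnfaip3) were lower and Relb was not called. Of the 1583 tested genes 600 to 607 were higher and 454 to 464 lower under them. At library totals 86.3% of all tested genes were called higher in this comparison and 10.7% lower. In 85.8% every HighDose library lay above every PBS library, and 10.3% had every library below. A count of 8 of 8 is thus near the background of the list. The median log2 change of the 8 genes was 2.53, against 1.90 over all tested genes, with 5 genes above that median and 3 below it by estimate. The 95% intervals of Nfkbie and Relb held that median of all tested genes. At library totals the changes reached from 1.11 for Nfkbia to 4.87 for Traf1, so that the 8 lay on both sides of the median of the list. In bulk tissue, more cells that contain a transcript and more of that transcript per cell cannot be told apart.

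**Figure D1:**
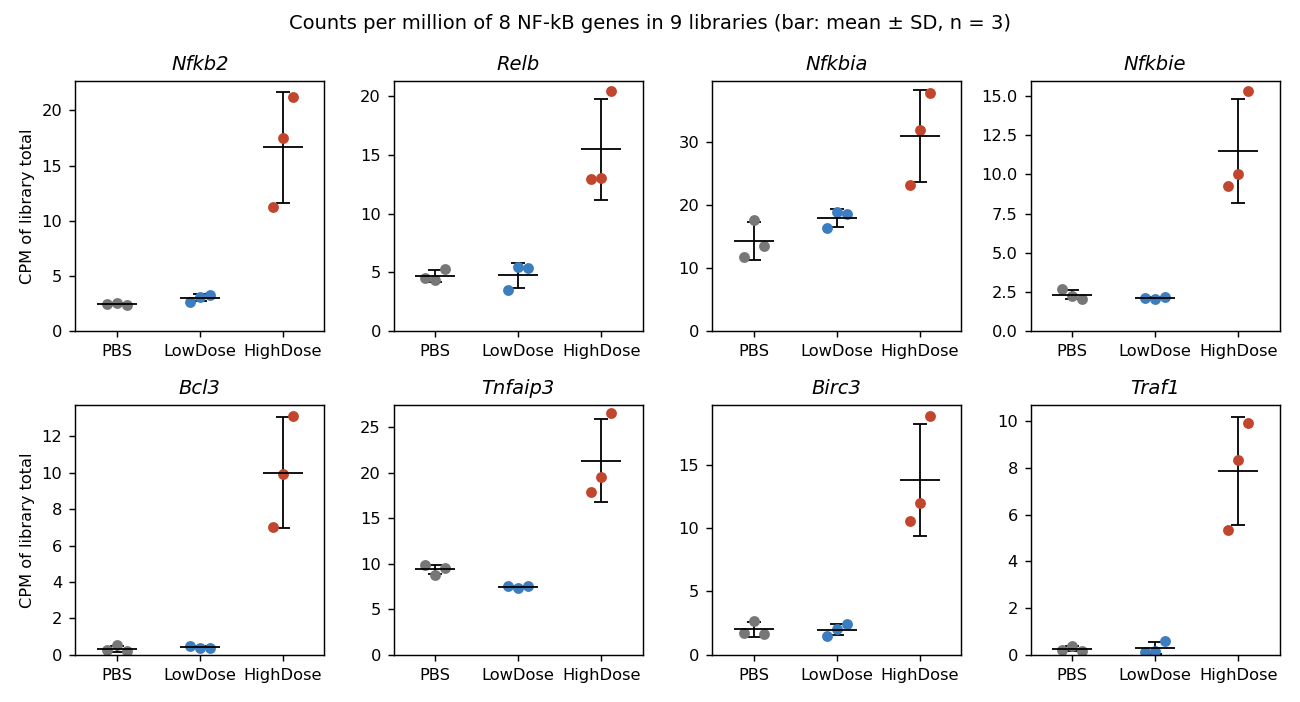
CPM of library total (vertical axes, linear, from 0) for each of the 8 genes in PBS, LowDose and HighDose libraries, with 1 point per library and bars for mean ± SD (n = 3). All HighDose points lie above all PBS and LowDose points on this scale. Under TMM scaling, which holds the listed genes level, Nfkbia and Tnfaip3 are lower in HighDose against PBS, and Relb is slightly negative without a call.

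Among the subunit genes, Nfkb2 encodes a precursor that is processed to the DNA-binding partner of the alternative NF-kB pathway. The gene lies on the plus strand at chr19:46304320-46312385 (mm10) with ENSMUSG00000025225 as its identifier. It had 2.46, 2.53 and 2.41 CPM in PBS libraries, 2.67, 3.12 and 3.27 CPM in LowDose libraries, and 11.3, 17.5 and 21.2 CPM in HighDose libraries. The 3 groups did not overlap, and the gap between HighDose and the other groups was far wider than that between LowDose and PBS. In HighDose against PBS the log2 change was 2.76 ± 0.28 (edgeR adjusted p = 6.22e-12), which is 0.86 above the median of all tested genes. The gene overlaps Psd and a non-coding gene on the minus strand, its estimated counts were not whole in 9 of 9 libraries, and strand use in counting is not stated, so its level is uncertain to that extent.

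Relb encodes the activating subunit that pairs with the Nfkb2 product (chr7:19606217-19629438, minus strand). Its values were 4.52, 4.36 and 5.30 CPM in PBS libraries, 3.54, 5.44 and 5.34 CPM in LowDose libraries, and 12.99, 13.01 and 20.45 CPM in HighDose libraries. PBS and LowDose overlapped, and a single HighDose library stood above the other 2. The log2 change in HighDose against PBS was 1.71 ± 0.26 (edgeR adjusted p = 1.56e-07) at library totals, 0.19 under the median of all tested genes, and it was −0.01 with TMM and 0.03 with DESeq2 size factors. Nfkb2 and Relb, partners in 1 dimer, thus stood on opposite sides of that median.

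The classical inhibitor genes moved unequally. Nfkbia encodes IkB alpha, the inhibitor that is rebuilt soonest after NF-kB is activated (chr12:55489410-55492647, minus strand). It had 11.8, 17.7 and 13.6 CPM in PBS libraries, 16.4, 19.0 and 18.7 CPM in LowDose libraries, and 23.3, 32 and 37.9 CPM in HighDose libraries. LowDose overlapped PBS through the second PBS library, and HighDose lay above both. The log2 change in HighDose against PBS was 1.11 ± 0.23 (edgeR adjusted p = 2.54e-05) at library totals, the smallest of the 8, and −0.60 (adjusted p = 0.00225) with TMM scaling. Against the median of all tested genes it was 0.79 lower.

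Nfkbie encodes IkB epsilon, an inhibitor that holds dimers of RelA and c-Rel (chr17:45555703-45563169, plus strand). Libraries of PBS had 2.67, 2.28 and 2.07 CPM, those of LowDose 2.11, 2.02 and 2.19 CPM, and those of HighDose 9.23, 10.0 and 15.3 CPM. LowDose values lay within or just under the PBS range, and HighDose values stood well apart. In HighDose against PBS the log2 change was 2.30 ± 0.29 (edgeR adjusted p = 2.19e-09), 0.40 above the median of all tested genes.

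Bcl3 encodes a nuclear IkB family member that binds DNA-bound NF-kB dimers and acts as a co-regulator (chr7:19808462-19822770, minus strand). Counts were 5, 11 and 5 in PBS libraries, 12, 9 and 7 in LowDose libraries, and 161, 207 and 302 in HighDose libraries. The gene thus rested on few counts in PBS and LowDose libraries and on many in HighDose libraries. Its level averaged 10.0 ± 3.02 CPM in HighDose libraries, against 0.345 ± 0.164 CPM in PBS libraries (SD, n = 3 each), a log2 change of 4.83 ± 0.40 (edgeR adjusted p = 1.37e-14). That is 2.93 above the median of all tested genes. Antisense genes (Gm16174 and Gm16175) overlap the locus, and without stated strand use their reads cannot be told apart from those of Bcl3.

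Tnfaip3 encodes A20, a ubiquitin-editing enzyme that shuts down signalling upstream of the IkB kinase (chr10:19000910-19015657, minus strand). It had 9.87, 8.81 and 9.5 CPM in PBS libraries, 7.59, 7.37 and 7.53 CPM in LowDose libraries, and 17.9, 19.5 and 26.5 CPM in HighDose libraries. The LowDose libraries lay close together and all under the PBS libraries, while the HighDose libraries lay above both. In HighDose against PBS its log2 change was 1.18 ± 0.23 (edgeR adjusted p = 1.06e-05) at library totals and −0.53 (adjusted p = 0.00308) with TMM scaling. It was 0.72 under the median of all tested genes. The 2 feedback genes best known as early NF-kB targets, Nfkbia and Tnfaip3, had the smallest changes of the 8.

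Birc3 encodes cIAP2, a ubiquitin ligase of the TNF receptor complex that protects cells from death (chr9:7848699-7873186, minus strand). Its values were 1.74, 2.66 and 1.61 CPM in PBS libraries, 1.52, 2.02 and 2.40 CPM in LowDose libraries, and 10.6, 12 and 18.8 CPM in HighDose libraries. PBS and LowDose overlapped throughout, with HighDose apart from both. In HighDose against PBS its log2 change was 2.78 ± 0.30 (edgeR adjusted p = 5.31e-11), 0.88 above the median of all tested genes and close to that of Nfkb2.

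Traf1 encodes an adaptor of TNF receptor signalling that binds the cIAP proteins (chr2:34941750-34961772, minus strand). Counts were 4, 8 and 4 in PBS libraries, 3, 4 and 11 in LowDose libraries, and 122, 174 and 229 in HighDose libraries. As for Bcl3, the groups without the higher dose rested on few counts, and both genes passed the filter on low counts only through HighDose libraries. Levels averaged 7.86 ± 2.33 CPM in HighDose libraries, against 0.263 ± 0.109 CPM in PBS libraries (SD, n = 3 each). The log2 change of 4.87 ± 0.46 (edgeR adjusted p = 5.61e-13) lay 2.97 over the median of all tested genes. Bcl3 and Traf1 had nearly equal changes by estimate. Whether promoter matches bear on the size of a change was not tested.

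**Figure D2:**
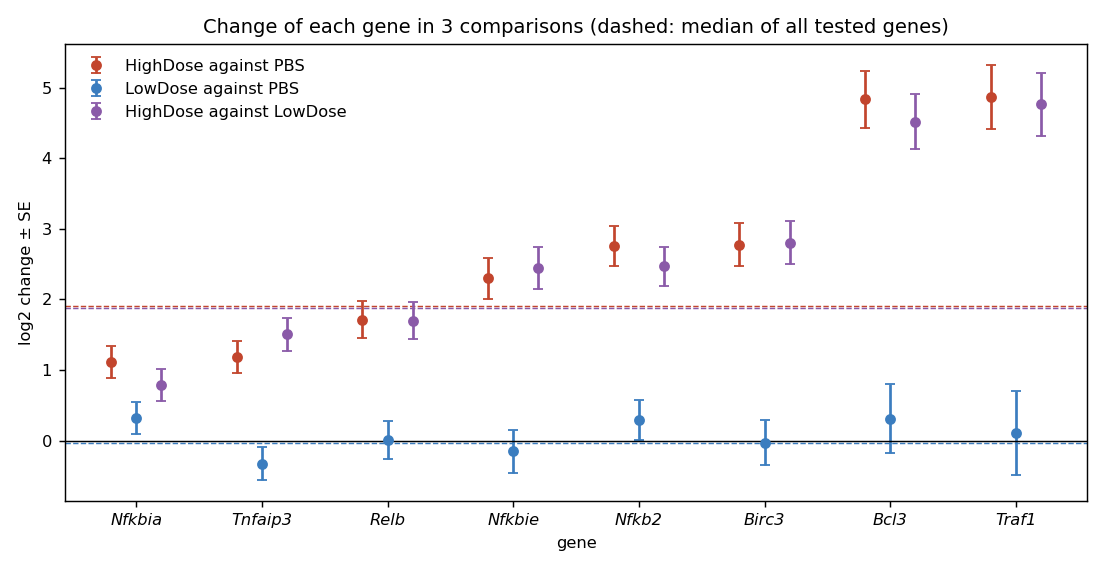
Log2 change ± SE (vertical axis) of each gene against PBS at the high and the low dose, and between the doses, at library totals, with dashed lines at the medians of all tested genes (1.90, −0.03 and 1.88). Nfkbia, Tnfaip3 and Relb lie under the HighDose medians and Bcl3 and Traf1 far above them, while the LowDose points lie near 0. With TMM scaling, which holds the listed genes level, Nfkbia, Tnfaip3 and Relb turn negative in the HighDose comparisons, not all with a call.

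LowDose against PBS showed no called change in any of the 8 genes. By edgeR 0 of 8 passed the adjusted threshold, 0 of 8 had an unadjusted p under 0.05, and 0 of 8 were called by the DESeq2 Wald test or by limma-voom. Bcl3 and Traf1 entered these tests only because their HighDose libraries passed the filter on low counts. With only PBS and LowDose libraries fitted, 1199 genes passed that filter, against 1583 with all groups. Of all tested genes 0.442% were called higher and 2.15% lower in this comparison. With a replicate block 12 tested genes were higher and 50 lower, against 7 and 34 without it, and 0 of the 8 were called. Log2 changes without the block lay between −0.32 (Tnfaip3) and 0.32 (Nfkbia), and the smallest adjusted p of the 8 was 0.681. Nfkb2 had every LowDose library above every PBS library, and Tnfaip3 every LowDose library below, against 6.57% and 13.1% of all tested genes that did so. The 95% interval of the log2 change was −0.27 to 0.85 for Nfkb2, −0.78 to 0.13 for Tnfaip3 and −0.12 to 0.77 for Nfkbia. For the genes with few counts it was wider, from −0.64 to 1.27 for Bcl3 and from −1.06 to 1.27 for Traf1, so changes within those limits were not excluded by the fit.

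In HighDose against LowDose all 8 genes were again higher at library totals, with no overlap of libraries. With TMM scaling 5 were higher, Nfkbia was lower and Relb and Tnfaip3 were negative without a call. Of the 1583 tested genes 565 were higher and 461 lower with that scaling. With the listed sum, where 524 tested genes were higher and 524 lower, Tnfaip3 was called lower too. At library totals 88.1% of all tested genes were called higher and 7.08% lower. In 86.5% every HighDose library lay above every LowDose library, and 6.32% had every library below. These values share the HighDose libraries with the comparison to PBS. Log2 changes were 4.76 ± 0.45 for Traf1 and 4.52 ± 0.39 for Bcl3, and 0.79 ± 0.23 for Nfkbia (edgeR adjusted p = 7.02e-13, 3.68e-14 and 0.00147). The Traf1 value rests in part on 1 library, since without LowDose replicate 3 it was 5.64. Nfkbia was thus 1.09 under the median of all tested genes and Traf1 2.88 above it.

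Within the HighDose group the 8 genes kept 1 order of libraries by CPM. HighDose replicate 3 was highest in 8 of 8 genes and replicate 1 lowest in 8 of 8, and the highest library exceeded the lowest by 1.48 times (Tnfaip3) to 1.88 times (Nfkb2). The share of the total held by all listed genes followed the same order, at 3.90% in replicate 1, 5.21% in replicate 2 and 6.04% in replicate 3. In the other groups no library was highest in all 8, with at most 5 of 8 in PBS replicate 2 and 4 of 8 in LowDose replicate 3. The spread within HighDose was thus shared across the genes and with the summed share of the list. For Relb replicates 1 and 2 were nearly equal, at 12.99 and 13.01 CPM. By FPKM Birc3 was lowest in replicate 2, at 4.86 against 4.91 in replicate 1. How many of all tested genes kept the same order was not counted, so it is not shown to be particular to the 8.

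Levels per transcript length drew together at the higher dose. In PBS libraries Nfkbia was highest at 9.10 ± 1.93 FPKM and Traf1 lowest at 0.130 ± 0.0529 FPKM (SD, n = 3). Their ratio of 70.0 in PBS and 79.6 in LowDose compared with 5.33 in HighDose, where Nfkbia had 19.7 ± 4.65 and Traf1 3.69 ± 1.27 FPKM. By library the ratio of the highest to the lowest gene was 59.1 to 95.8 in PBS, 42.3 to 173 in LowDose and 4.88 to 6.20 in HighDose, so the HighDose libraries did not overlap the others. A ratio of genes within a library does not depend on how libraries are scaled. The PBS and LowDose ratios rest on Traf1, with 3 to 11 counts per library there, and that of 173 on 3 counts in LowDose replicate 1. Whether other listed genes drew together in the same way was not tested.

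The order of levels in PBS was Nfkbia, Relb, Tnfaip3, Birc3, Nfkbie, Nfkb2, Bcl3 and Traf1. Neighbours overlapped in their libraries for Relb and Tnfaip3, for Birc3 and Nfkbie, and for Bcl3 and Traf1, and were apart elsewhere. LowDose kept nearly that order, with Nfkb2 above Nfkbie and these overlapping. In HighDose the order was Nfkbia, Relb, Birc3, Bcl3, Tnfaip3, Nfkb2, Nfkbie and Traf1, and every gene after Nfkbia overlapped its neighbour. Bcl3, at 5.91 ± 1.74 FPKM in HighDose libraries against 0.187 ± 0.0907 in PBS libraries (SD, n = 3 each), thus came level with Tnfaip3, at 5.41 ± 0.769 against 2.12 ± 0.122 FPKM.

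**Figure D3:**
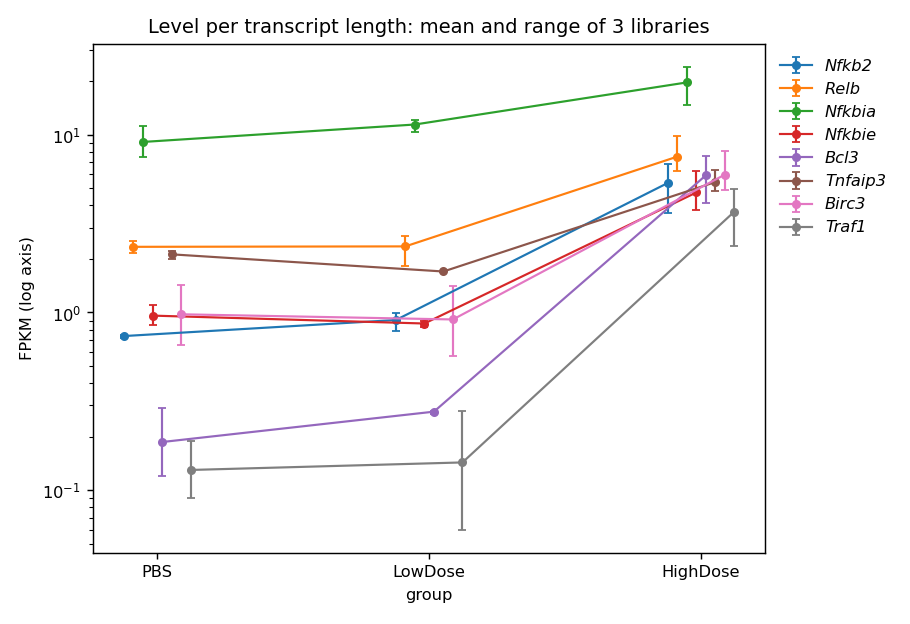
FPKM (log axis) of the 8 genes in PBS, LowDose and HighDose, as the mean of 3 libraries with bars for their lowest and highest value, joined by lines to guide the eye. From highest to lowest gene the means spanned a ratio of 70.0 in PBS, 79.6 in LowDose and 5.33 in HighDose.

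Count and FPKM together give the transcript length that the deposited FPKM assumed, and for Tnfaip3 this differed by group. The implied length was 4425, 4429 and 4418 bases in PBS libraries, 4411, 4388 and 4432 bases in LowDose libraries, and 3699, 3827 and 4216 bases in HighDose libraries. All 3 HighDose libraries lay under the other 6, by more than the rounding of FPKM allows. For Nfkb2 it was 3280, 3419 and 3342 bases in PBS, 3374, 3315 and 3302 bases in LowDose, and 3100, 3129 and 3105 bases in HighDose libraries. Those HighDose values again lay under the others, with the overlap with Psd as described. Nfkbia, with an implied 1578 bases in each of the 9 libraries, served as a gene without such a shift. The length varied for other genes too. For Bcl3 it was 1817 to 1921 bases in PBS, 1336 to 1873 bases in LowDose and 1656 to 1719 bases in HighDose libraries, for Birc3 1876 to 2445, 1705 to 2662 and 2156 to 2461 bases, for Relb 1855 to 2104, 1935 to 2095 and 2024 to 2076 bases. FPKM ratios between groups and the FPKM order of these genes therefore carry the assumed lengths, and tests used counts only. Which transcripts were counted was not tested, since no values per transcript were analysed.

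**Figure D4:**
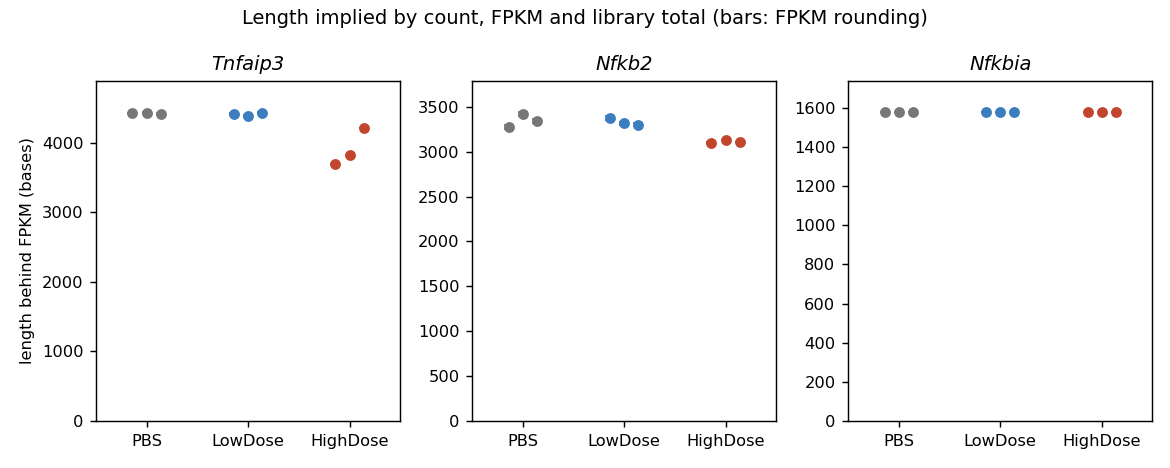
Length in bases implied by count, FPKM and library total (vertical axes from 0) for Tnfaip3, Nfkb2 and Nfkbia, 1 point per library with bars for the rounding of FPKM (mostly smaller than the points). Tnfaip3 falls to 3699 to 4216 bases in HighDose libraries, against 4388 to 4432 bases in LowDose and PBS libraries, and Nfkbia stays at 1578.

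Profiles closest to each gene were sought over the 9 libraries among 1290 tested genes, by the root mean square difference of log2(CPM + 0.5) less the PBS mean. The nearest were Fcer1g for Nfkb2 (0.107), Stard5 for Relb (0.129), Syde1 for Nfkbia (0.0768), Tlr13 for Nfkbie (0.112), Btg1 for Tnfaip3 (0.106), Gtse1 for Birc3 (0.148), B2m for Bcl3 (0.144) and Tspo for Traf1 (0.173). Among the 8 genes the closest pairs were Nfkb2 with Birc3 (0.236) and Bcl3 with Traf1 (0.281), while Nfkbia was no closer than 0.418 to any. The added 0.5 CPM exceeds the PBS means of Bcl3 (0.345 CPM) and Traf1 (0.263 CPM). On this scale their HighDose libraries lay 3.17 to 4.02 and 2.94 to 3.78 above the PBS mean, against fitted changes of 4.83 and 4.87. Their nearest genes and their closeness to each other carry this compression. All distances describe 9 libraries that share their groups, and carry no test.

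Other genes of the pathway, listed by role, moved in the same direction as the listed genes in general. Of 154 pathway genes outside the 8, 81 were in the table and tested. At library totals 80 were called higher and 1 lower in HighDose than in PBS libraries, against 86.3% and 10.7% of all tested genes. TMM scaling gave 45 of the 81 higher and 12 lower, against 600 higher and 464 lower of the 1583 tested genes. The median log2 change of the 81 at library totals was 2.74, against 1.90 over all tested genes. In HighDose against LowDose 80 were higher and 0 lower at library totals, against 88.1% and 7.08% of all tested genes. The other scalings gave 38 to 42 of the 81 higher and 11 to 17 lower there, against 524 to 576 higher and 445 to 524 lower of the 1583 tested genes. In LowDose against PBS 1 was higher (Ptgs2) and 0 lower, with 7 at an unadjusted p under 0.05, while 0.442% and 2.15% of all tested genes were called. The other list members were not analysed here.

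By role, median log2 changes in HighDose against PBS at library totals were lowest for the other Rel family and IkB genes and highest for target genes. All 3 tested Rel family and IkB genes of 7 were called higher (median 1.34), as were 6 of 19 kinase genes (median 1.72) and 7 of 22 adaptor and ligase genes (median 1.48), the rest not being in the table. Under TMM scaling 2 of these Rel family genes turned lower, Nfkb1 (subunit gene of the classical pathway) at −0.37 and Rel (encoding c-Rel) at −0.64, against 1.34 ± 0.22 and 1.08 ± 0.24 at library totals. Nfkbiz, an atypical IkB gene, changed by 1.81 ± 0.29 at library totals and by 0.08, without a call, with TMM. At library totals all 22 tested receptor genes of 27 on the list were called higher (median 2.84), as were all 7 tested ligand genes of 16 (median 2.96) and all 25 tested target genes of 40 (median 4.12), against 86.3% of all tested genes. Other feedback regulators gave 10 higher and 1 lower among 11 tested of 24 (median 2.18).

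Among kinases and adaptors, Map3k8, a kinase that the Nfkb1 precursor protein holds inactive, averaged 4.05 ± 1.2 CPM in HighDose libraries and 0.841 ± 0.282 CPM in PBS libraries (SD, n = 3 each). Its log2 change of 2.25 ± 0.39 (edgeR adjusted p = 1.65e-06) was no longer called with TMM scaling, at 0.52. Myd88, the adaptor of most Toll-like receptors, averaged 47.9 ± 14.4 CPM in HighDose and 5.56 ± 0.567 CPM in PBS libraries, a log2 change of 3.10 ± 0.25 (edgeR adjusted p = 4.21e-15). At library totals Rnf31, Ripk1 and Ripk2 changed by 1.58, 1.65 and 1.78. Under the other scalings none of them was called, with estimates under 0 for Rnf31 and Ripk1.

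Among feedback regulators, Usp18, a negative regulator of interferon signalling, had 13378 counts in HighDose and 91 in PBS libraries, summed over 3 each, and a log2 change of 7.06 ± 0.31 (edgeR adjusted p = 1.99e-23). Atf3, a stress-induced repressor, changed by 5.62 ± 0.33 and Socs3, an inhibitor of cytokine receptors, by 3.54 ± 0.27. Pdlim2, whose product promotes degradation of RelA, was the gene that fell, with 6.31 ± 0.350 CPM in HighDose and 12.1 ± 2.41 CPM in PBS libraries (log2 change −0.94 ± 0.24, edgeR adjusted p = 0.000478). It was named after its value was seen.

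Upstream of NF-kB, Tlr9 and Tlr3, receptors for DNA and for double-stranded RNA, averaged 28.5 ± 5.83 and 94.0 ± 29.5 CPM in HighDose libraries, against 2.16 ± 0.197 and 14 ± 1.7 CPM in PBS libraries (SD, n = 3 each). Their log2 changes were 3.72 ± 0.28 and 2.74 ± 0.24, and that of Tlr2, a receptor for bacterial lipoproteins, was 4.0 ± 0.32. Of the ligand genes Tnf had 139 counts in HighDose and 6 in PBS libraries, summed over 3 each, and Il1b had 244 and 22. Tnfsf10, which encodes the death ligand TRAIL, changed by 2.96 ± 0.27. Tnf and Il1b thus rested on far fewer counts than Tnfsf10, which had 2013 in HighDose and 235 in PBS libraries.

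Downstream, Irf1, a transcription factor of interferon and NF-kB responses, averaged 132 ± 24.8 CPM in HighDose and 5.42 ± 0.885 CPM in PBS libraries, a log2 change of 4.6 ± 0.25 (edgeR adjusted p = 9.02e-21). Cfb, encoding complement factor B, changed by 5.50 ± 0.36. Ccl2, a chemokine that draws monocytes, had 1324 counts in HighDose and 2 in PBS libraries, a ratio of 601 with a 95% counting interval of 166 to 4968. Ptgs2, encoding the inducible prostaglandin synthase, averaged 17.3 ± 2.73 CPM in LowDose and 9.96 ± 0.630 CPM in PBS libraries (SD, n = 3 each), a log2 change of 0.80 ± 0.23 with an edgeR adjusted p of 0.0480. That call was lost with limma-voom (adjusted p = 0.0647) and without any 1 of PBS replicates 1, 2 or 3, LowDose replicates 1 or 3, or HighDose replicate 2 (adjusted p = 0.0568 to 0.213).

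**Figure D5:**
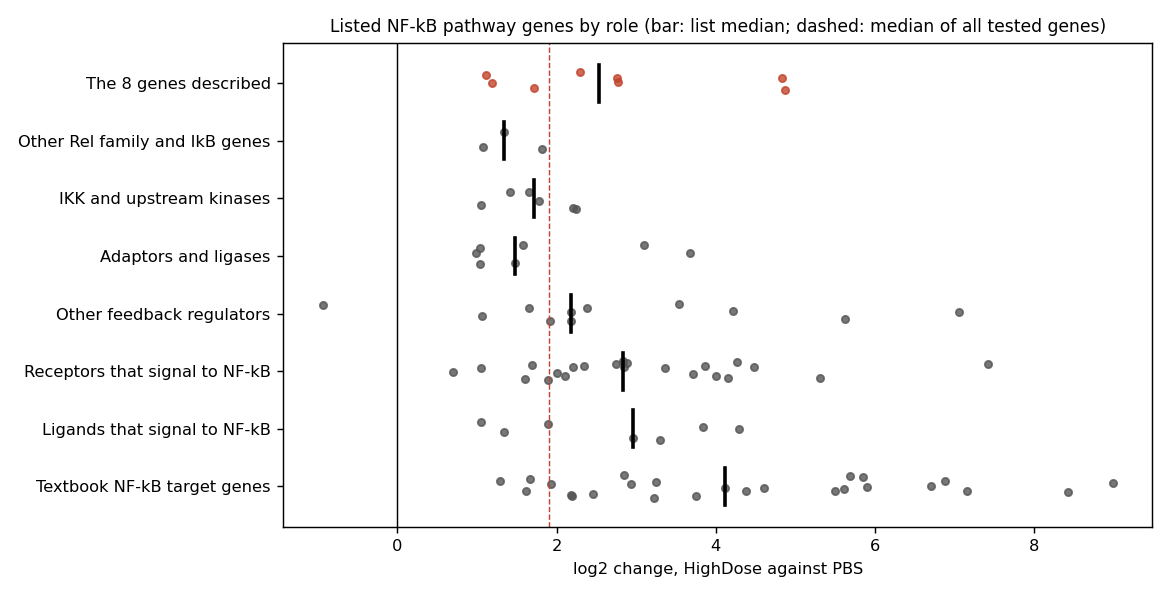
Log2 change in HighDose against PBS at library totals (horizontal axis) of each tested pathway gene by role, 1 point per gene, with a bar at the median of each list and a dashed line at the median of all tested genes (1.90). List medians run from 1.34 for other Rel family and IkB genes to 4.12 for target genes. With TMM scaling the median of all tested genes moves to 0.19. Of the 81 genes outside the 8, 45 are then higher and 12 lower, against 600 and 464 of the 1583 tested genes.

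Markers of immune cells had higher summed levels in HighDose libraries at library totals, as the 8 genes did. Single genes of the B cell list and of the monocyte and border macrophage list were exceptions. Summed T cell markers (9 of 10 in the table, Cd3d at 0 in all PBS libraries) were 0.823 to 0.922 CPM in PBS, 0.588 to 1.44 CPM in LowDose and 12.1 to 26.3 CPM in HighDose libraries. NK cell markers (6 of 6) were 0.291 to 0.709, 0.135 to 0.214 and 14.8 to 26.9 CPM in the same order, B cell markers (6 of 6) 0.763 to 1.43, 0.548 to 0.962 and 5.08 to 11.6 CPM. Among the B cell markers Cd79b was not called in HighDose against PBS (log2 change 1.01, edgeR adjusted p = 0.0680). With TMM scaling it was −0.75, again without a call. Monocyte and border macrophage markers (5 of 11) were 13.5 to 23.8, 22.2 to 32.2 and 157 to 249 CPM. Within that list 4 genes were called higher in HighDose than in PBS libraries, with 86.8 CPM of Ly6c2 in HighDose libraries, and Cd163, a marker of border macrophages, was called lower (log2 change −1.59, edgeR adjusted p = 0.00250). With TMM scaling Lyz2 of that list was no longer called and was slightly negative. The NK cell marker Eomes (0.83) and the dendritic cell marker Cd209a (2.37) also lost their calls with TMM scaling. Dendritic cell markers (5 of 8, Xcr1 at 0 in all PBS libraries) were 0.533 to 1.2, 1.60 to 2.83 and 16.3 to 33.1 CPM. Their part in the changes of the 8 genes was not tested.

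Markers of resident brain cells did not all move one way at library totals. Microglia markers (6 of 10) summed to 119 to 151 CPM in PBS, 110 to 116 CPM in LowDose and 148 to 160 CPM in HighDose libraries, and endothelial markers (3 of 9) to 98.1 to 126, 91.1 to 102 and 134 to 163 CPM. These sums hide a split in HighDose against PBS. Of the microglia markers Aif1 (2.27), Olfml3 (1.32) and Tmem119 (1.05) were called higher and Fcrls (−1.38), Gpr34 (−1.07) and P2ry12 (−0.97) lower (log2 changes at library totals), while with TMM scaling 1 was higher and 5 were lower. Of the endothelial markers 2 were called higher and Slco1a4 (−1.03) lower, while with TMM scaling all 3 were lower. Gfap, the 1 astrocyte marker of 8 in the table, was 113 to 146, 100.02 to 168 and 374 to 534 CPM. Oligodendrocyte markers (3 of 8) were 1663 to 2182, 1004 to 1221 and 797 to 1089 CPM. Striatal neuron markers (10 of 10) were 841 to 1255, 295 to 694 and 284 to 333 CPM, while 0 of 10 cortical neuron markers were in the table, so the label "brain ctx" could not be checked from the genes listed. The part of these shifts in the changes of the 8 genes was not tested either.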

How the data were processed

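RNA-seq of 9 libraries (3 groups of 3) was analysed from 1 deposited table. The authors deposited an estimated count for each gene and library, made on mouse build mm10 per the submitters' processing notes, which name edgeR and DESeq2 without a role. FPKM values were deposited beside them, per the file headers. The sources used here name no aligner or counter, no strand setting, and no rule by which genes entered the list. Between 7.66% and 14.0% of count values per library were not whole and were rounded before testing.

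Library totals (18.3 to 23.7 M) were recovered from count, FPKM and length of 23 to 68 genes that GENCODE M21 gives 1 transcript, by their median, using genes of 5 FPKM or more, 100 counts or more and 600 bases or more. They served as the main scaling because all 1710 listed genes differ at least 2-fold between some group means. Genes were filtered with filterByExpr (minimum count 10) and compared with the quasi-likelihood test of edgeR 4.0.16 under R 4.3.3, all groups being fitted together, with Benjamini-Hochberg adjustment at 0.05 over the 1583 tested genes. The steps were tested on simulated counts in which 200 genes changed, equally often up and down. In HighDose against PBS 80.4% of changes of log2 1 and 98.0% of those of log2 2, in either direction, were called, with 5 false calls. Library totals were taken as known there, so the simulation could not test the scaling. After ±, log2 changes have their SE and levels their SD. The floor and the interval of the Ccl2 ratio cover counting error only, and 95% intervals of log2 changes follow from the SE and so include the spread between libraries.

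The 8 genes and all lists were chosen with earlier results of these data known. Beside the 8, the text names up to 3 genes with the smallest p per pathway list, genes called in LowDose against PBS, and the nearest profile of each of the 8 among tested genes with mean CPM of at least 1. A result that falls under this rule is not reported here. The settings tried beside these were TMM, DESeq2 1.42.0 size factors, the listed sum, no or a stricter filter (1 CPM in 3 libraries), the DESeq2 Wald test, limma-voom (limma 3.58.1), only the groups compared, a replicate block and leaving out each library. Adjustment over all 55450 annotated genes was added after seeing the data. Gene coordinates come from GENCODE M21 and promoters from RefSeq.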

Additional observations from a re-analysis of the deposited data

How the results depend on the processing

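Scaling was the choice that changed results most. Under TMM scaling, DESeq2 size factors and the listed sum, members of the 8 called higher and lower in HighDose against PBS were 5 and 2 each time, and in HighDose against LowDose 5 and 1, 5 and 1, and 5 and 2. In the same order of scalings, tested genes called higher were 600, 605 and 607 in HighDose against PBS, with 464, 455 and 454 lower, and 565, 576 and 524 in HighDose against LowDose, with 461, 445 and 524 lower. Other pathway genes gave 45, 45 and 45 higher with 12, 11 and 11 lower in HighDose against PBS, and 42, 42 and 38 higher with 11, 11 and 17 lower in HighDose against LowDose. Log2 changes that turned negative in HighDose against PBS were −0.0057 for Relb with TMM, −0.60, −0.58 and −0.57 for Nfkbia, −0.53, −0.50 and −0.50 for Tnfaip3, −0.37, −0.35 and −0.34 for Nfkb1, −0.64, −0.61 and −0.61 for Rel, −0.077, −0.048 and −0.048 for Ripk1, −0.13, −0.10 and −0.10 for Rnf31, and −0.10, −0.073 and −0.072 for Ptgs2. Of these, Nfkbia, Tnfaip3, Nfkb1 and Rel were called lower under each of the scalings, and Relb, Ripk1, Rnf31 and Ptgs2 under none. In HighDose against LowDose the negative values were −0.052, −0.011 and −0.19 for Relb, −0.97, −0.93 and −1.11 for Nfkbia, and −0.25, −0.21 and −0.38 for Tnfaip3. There Nfkbia was called under each scaling, Tnfaip3 with the listed sum only and Relb under none. These scalings hold the listed genes level by construction. Nfkbiz, Ripk2 and Map3k8 were no longer called under any of the 3.

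In LowDose against PBS, where 7 tested genes were called higher and 34 lower, TMM and DESeq2 size factors gave 3 and 3, and the listed sum 9 and 2. Higher calls were 4 with limma-voom, 11 with only the groups compared and 1, beside 7 lower, with adjustment over all annotated genes. Other pathway genes called higher there, 1 in the main result, were 2 with the listed sum, 0 with limma-voom, 2 with only the groups compared and 0 over all annotated genes. That adjustment also left 42 genes lower in HighDose against LowDose and took Nfkbia there to an adjusted p of 0.0516. Same-numbered PBS and LowDose libraries correlated at 0.137 to 0.246 in their deviations from group means, each over 0.1, and other PBS and LowDose pairs at −0.147 to 0.0133. With HighDose, same-numbered libraries correlated at −0.006 to 0.183, so the numbers were not taken as pairs over all groups, and the labels do not say what a number marks. With a replicate block 12 tested genes were higher and 50 lower in LowDose against PBS, and calls among the 8 were 8 in both HighDose comparisons and 0 in LowDose against PBS.

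Leaving out each library kept 8 of 8 genes higher in HighDose against PBS and against LowDose and 0 called in LowDose against PBS. Tested genes called in LowDose against PBS ranged over 5 to 22 higher and 18 to 57 lower, and other pathway genes over 0 to 3 higher. The cause of these shifts was not tested. The precision of Bcl3 and Traf1 is limited by 3 to 12 counts per library in PBS and LowDose.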
